A study of Mus musculus with 4 samples.

Results

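Open chromatin was mapped over exons in neurospheres, the floating balls that neural progenitors form in culture, from the hippocampus of newborn (P0) C57BL/6 mice. The regions described here are the 1237 of 29121 merged accessible regions that lay on chromosomes 1 to 19 or X, that the deposited table annotates as exon, and whose detailed annotation is not a CpG island. Of the 29121 regions, 29083 lay on these chromosomes. All 4 cultures came from mice that carried the Cre transgene hGFAPCre, which is driven by a GFAP promoter and is active in progenitors of the neural lineage. The 2 control cultures had an intact X-linked Fgf13 gene (Fgf13+/y), and the 2 Fgf13cko cultures had a floxed one (Fgf13 flox/y). The medium held FGF-2 and EGF at 20 ng/ml each, and spheres were collected on day 7. Nothing in the labels ties each culture to its own mouse, so p-values measure the spread between these cultures, which may be technical. No exonic region lay in Fgf13, so the deletion itself was not checked here.

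The CpG part of the rule removed 0 regions. The table lists a CpG island for 1784 regions, but 1305 of these are annotated as intron and 479 as intergenic, and none as exon or start site, so the annotation names an exon before it looks for an island. The data also go against reading the set as free of CpG islands. A RefSeq promoter window (GRCm38.p6, 250 bases before to 50 bases after a gene's start) overlapped 711 of the 1237 regions (57.5%). In 501 of these 711 regions (70.5%) such a window had a GC content above 50% and an observed over expected CpG ratio above 0.6, the usual criteria of an island. The same share was 80.0% for regions annotated as start sites and 80.6% for introns with a listed island. Counted by window and not by region, 33.3% of all promoter windows met these criteria. The regions are therefore called exonic regions below.

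Transposase cuts DNA where nucleosomes are absent or loose, so the tags of an accessibility assay pile up at active promoters and enhancers. Exons make up a small part of a gene. A region annotated as exonic is often the downstream flank of a promoter, when it lies on a first exon, or an accessible stretch in the gene body, when it lies on a later one. Coding exons can also hold enhancers. The annotation follows the centre of a region, and the regions, with a median width of 984 bp (247 to 3372 bp, against 830 bp for all nuclear regions), can reach beyond the exon. Every region of the table has a peak in all 4 libraries, so an exon open in a single group would not be among them.

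The exonic regions lay mostly beside start sites. A first exon held 882 (71.3%), an internal exon 239 and a last exon 116. The distance from a region's centre to the nearest start site was at least 101 bp and had a median of 298 bp. Within 1 kb of a start site lay 919 regions (74.3%), called promoter-side below, of which 867 were on a first exon. The other 318, called gene-body regions, lay at a median of 10850.5 bp. Of these, 197 were on an internal exon and 106 on a last exon, and only 14 (4.40%) overlapped a RefSeq promoter window. The 1237 regions fell in 1212 genes, of which 25 held a pair of regions and 0 held more. The gene of a region was taken from the exon's transcript and was the nearest gene of the table for 1091 regions.

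Sequences are shown only for promoter-side regions, since the exon sequence of the gene-body regions, the largest rises among them, was not used here. Each line gives the 250 bases before the RefSeq start of the gene (GRCm38.p6), 5′ to 3′ on the strand of the gene. Capitals mark matches, on either strand, to GGGCGG (the GC box of Sp factors), CCAAT (the box bound by NF-Y), TATAAA (the TATA box), CCGGAAG (ETS factors) or TGANTCA (AP-1). Ctbp1 is the only one of the 5 fallen regions that overlaps such a window. Btbd17, Ppp2r5c and Msx3 are the 3 risen regions that overlap one, and they were chosen for that after their values were seen. Hjurp had the most tags per kb, and Rab4b was among the 5 regions with the most.
Ctbp1, chr5:33275005-33275254, minus strand: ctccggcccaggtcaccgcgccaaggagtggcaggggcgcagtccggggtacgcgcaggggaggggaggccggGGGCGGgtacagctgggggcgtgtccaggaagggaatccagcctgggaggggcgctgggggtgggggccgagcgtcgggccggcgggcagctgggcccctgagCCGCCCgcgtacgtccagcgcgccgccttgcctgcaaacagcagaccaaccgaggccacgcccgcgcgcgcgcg
Btbd17, chr11:114795893-114796142, minus strand: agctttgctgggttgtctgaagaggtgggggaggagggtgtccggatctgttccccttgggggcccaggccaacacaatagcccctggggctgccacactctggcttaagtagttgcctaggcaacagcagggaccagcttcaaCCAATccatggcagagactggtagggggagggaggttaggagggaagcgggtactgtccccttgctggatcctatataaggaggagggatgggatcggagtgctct
Ppp2r5c, chr12:110485547-110485796, plus strand: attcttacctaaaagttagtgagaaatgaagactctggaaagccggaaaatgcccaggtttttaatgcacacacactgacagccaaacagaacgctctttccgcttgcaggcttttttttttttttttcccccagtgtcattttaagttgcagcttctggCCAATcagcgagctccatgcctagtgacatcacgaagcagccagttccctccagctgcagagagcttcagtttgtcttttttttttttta
Msx3, chr7:140049089-140049338, minus strand: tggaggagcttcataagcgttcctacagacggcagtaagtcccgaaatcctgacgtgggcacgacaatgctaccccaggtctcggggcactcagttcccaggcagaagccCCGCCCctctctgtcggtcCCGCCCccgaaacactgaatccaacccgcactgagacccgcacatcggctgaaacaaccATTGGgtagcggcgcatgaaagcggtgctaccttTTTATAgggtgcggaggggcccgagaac
Hjurp, chr1:88277580-88277829, minus strand: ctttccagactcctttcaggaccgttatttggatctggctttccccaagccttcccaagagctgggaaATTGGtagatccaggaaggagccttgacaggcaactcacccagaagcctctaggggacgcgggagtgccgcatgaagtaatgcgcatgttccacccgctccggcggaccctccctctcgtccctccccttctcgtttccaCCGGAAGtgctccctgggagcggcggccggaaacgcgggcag
Rab4b, chr7:27178884-27179133, minus strand: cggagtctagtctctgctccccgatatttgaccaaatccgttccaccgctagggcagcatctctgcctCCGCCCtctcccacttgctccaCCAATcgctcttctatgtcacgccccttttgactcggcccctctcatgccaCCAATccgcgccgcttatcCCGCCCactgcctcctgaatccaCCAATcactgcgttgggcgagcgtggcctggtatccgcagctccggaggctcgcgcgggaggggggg
The windows of Ctbp1, Msx3, Hjurp and Rab4b met the island criteria, whereas those of Btbd17 and Ppp2r5c did not. The Ppp2r5c region also overlaps windows of Gm19605, which starts on the opposite strand. Over the 300 bases of all windows that overlapped exonic regions, GGGCGG was found in 66.5%, against 35.7% of all RefSeq windows. CCGGAAG was found in 15.8% against 8.86%. CCAAT was found in 33.6% against 37.4%, TATAAA in 8.07% against 13.6% and TGANTCA in 4.77% against 7.81%. Windows over start-site regions had shares of 69.4%, 20.8%, 41.0%, 5.12% and 3.78% in the same order of motifs. Those over introns with a listed island had 75.3%, 13.5%, 32.9%, 7.54% and 3.23%. The excess of GGGCGG and CCGGAAG over all RefSeq windows was thus not particular to exonic regions. A match describes the letters of a window and no more.

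The libraries held 2.55 to 3.24 M nuclear tags in the regions, and between 108652.5 and 143067 of these fell in exonic regions, with a median of 68.5 to 87 tags per exonic region and library. Mitochondrial regions took 67.7% and 68.4% of all region tags in the controls but 38.5% and 31.5% in the Fgf13cko libraries, and the part of this gap in the results was not tested. The Fgf13cko libraries differed more from each other than the controls did. Log2 counts over exonic regions correlated at r = 0.960 between the controls and at r = 0.890 between the Fgf13cko libraries. Start-site regions were present in the table for 8 of 8 markers of neural progenitors (Sox2, Nes, Pax6, Hes5, Fabp7, Vim, Slc1a3 and Sox9), for 2 of 4 of neurons (Snap25 and Tubb3), for 1 of 3 of astrocytes (Aldh1l1), for 2 of 4 of oligodendrocyte lineage (Olig2 and Pdgfra), for 1 of 5 of microglia (P2ry12), for 2 of 4 of endothelium and pericytes (Kdr and Pdgfrb), for 1 of 2 of choroid plexus and ependyma (Foxj1) and for 0 of 3 of meningeal fibroblasts. An accessible start site does not show that a gene is expressed. Fewer accessible cells and less accessibility per cell cannot be told apart in these bulk data.

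Few exonic regions differed in accessibility between the groups beyond the spread of the cultures. Of 1231 tested, 25 (2.03%) were higher in Fgf13cko and 5 (0.41%) were lower at an adjusted p of 0.05 (edgeR quasi-likelihood test, two-sided, Benjamini-Hochberg adjustment over all 28801 tested regions). The background over all tested regions was 6.20% higher and 1.64% lower, and the difference between these shares was not tested. The median log2 fold change, Fgf13cko over control, was -0.01 for exonic regions, against -0.00062 for all regions. Both Fgf13cko libraries lay above both controls in 289 exonic regions (23.5%, background 28.5%) and below both in 300 (24.4%, background 25.2%). In all 30 regions that passed, the groups did not overlap, which passing a test of 2 against 2 largely requires, so it adds no support. For 7 of the 25 risen regions the gene that holds the exon is not the nearest gene of the table.

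These counts changed with each library left out, and the shares over all tested regions moved in the same direction each time. Fewer regions passed when either control was left out, and more when either Fgf13cko library was. Each such fit leaves 1 culture in a group, so its spread comes from the other group alone. Its counts are therefore not comparable with those above. The median log2 fold change of exonic regions was -0.00025 without control 1 and -0.01 without control 2. It was -0.096 without Fgf13cko 1 and 0.03 without Fgf13cko 2. Among the regions that passed, 83.3% rose, against 57.6% (34 risen, 25 fallen) with a loess offset. Of all tested regions, 7.75% rose and 4.10% fell with that offset. Scaling to all region tags, mitochondrial ones included, moved the median of all regions by 0.97 on the log2 scale and that of exonic regions to 0.95. It called 849 risen and 0 fallen (100% risen), with 0 lower also at an unadjusted p under 0.05 in edgeR. Over all tested regions it called 61.3% risen and 0.21% fallen. All changes below are relative to the TMM scaling, in which normalised tags are tag counts divided by a library's relative effective size.

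The largest rises lay on internal exons in gene bodies. The Cacna1c region (chr6:119056985-119057774, exon 2 of 47) held 53.9 and 36.3 normalised tags in the controls and 231 and 232 in the Fgf13cko libraries. Cacna1c encodes the pore-forming subunit of an L-type calcium channel. The Fgf13cko cultures were nearly equal and about 5.16-fold above the control mean, a log2 fold change of 2.37 (SE 0.23, adjusted p = 0.00384). The Dclk2 region (chr3:86793439-86794262, exon 14 of 18) held 52.9 and 55.8 tags in the controls and 207 and 208 in the Fgf13cko libraries. Dclk2 is a doublecortin-like kinase that binds microtubules. Its groups were far apart against a spread of a few tags within each, with a log2 fold change of 1.93 (SE 0.19, adjusted p = 0.00384). The Abcc12 region (chr8:86559908-86560899, exon 4 of 29) held 46.0 and 42.3 tags in the controls and 151 and 176 in the Fgf13cko libraries. Abcc12 is a transporter of the ABC family, and its region had a log2 fold change of 1.89 (SE 0.21, adjusted p = 0.00385). The calls of Cacna1c, Dclk2 and Abcc12 were kept in all 14 alternatives run for them, with either control left out included.

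**Figure D1:**
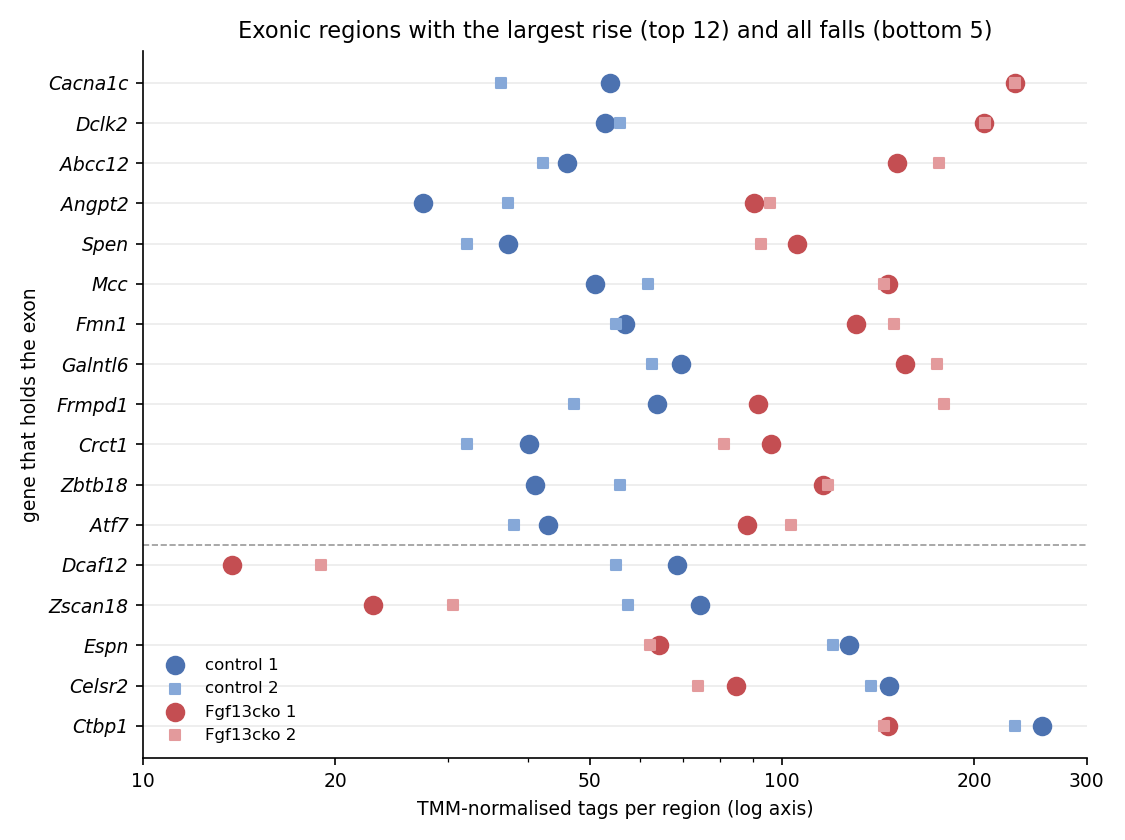
TMM-normalised tags (log axis) of the 12 exonic regions with the largest rise, above the dashed line, and of all 5 that fell, below it. Each point is 1 library, with blue for control, red for Fgf13cko, circles for replicate 1 and squares for replicate 2. The rows were chosen from regions whose groups did not overlap, so the gap between red and blue points is no added support.

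The other 9 of the 12 largest rises had log2 fold changes between 1.24 and 1.52, and each lost its call when either control was left out. The Angpt2 region (chr8:18694023-18694789, exon 8 of 9), in the gene of a ligand of the Tie2 receptor, went from 27.4 and 37.2 tags in the controls to 90.5 and 95.9 tags in the Fgf13cko pair (a rise of 1.52 on the log2 scale, adjusted p = 0.0126). Spen, a transcriptional corepressor, went from 37.2 and 32.1 to 105 and 92.8 tags at chr4:141477556-141478507 in exon 12 of 16 (log2 fold change 1.51, adjusted p = 0.0100). The region in exon 3 of Mcc, which was first described as a gene mutated in colorectal cancer, went from 50.9 and 61.7 to 147 and 144 tags (log2 fold change 1.36, adjusted p = 0.00811). These 3 regions lay 33.358 to 62.398 kb from the nearest start site. Fmn1, a formin that nucleates actin filaments, went from 56.8 and 54.9 to 131 and 150 tags at chr2:113363679-113364439 in exon 2 (log2 fold change 1.33, adjusted p = 0.00864). Galntl6, a GalNAc-transferase-like gene, went from 69.5 and 62.6 to 156 and 175 tags at chr8:57962137-57962977 in exon 5 of 12 (log2 fold change 1.33, adjusted p = 0.00751). The Galntl6 region was the farthest of the 25 risen ones from a start site, at 309.502 kb.

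Frmpd1 (chr4:45270849-45271589, exon 10 of 16), which encodes a protein with FERM and PDZ domains, held 63.7 and 47.3 tags in the controls, 91.7 in Fgf13cko 1 and 179 in Fgf13cko 2. Its rise of 1.30 on the log2 scale (adjusted p = 0.0487) leaned on Fgf13cko 2, without which it was 0.73. The call was also lost with a loess offset, with a minimum mean of 50 tags and without mitochondrial regions. Crct1 (chr3:93014200-93015068, exon 2 of 2) held 40.2 and 32.1 tags in the controls and 96.3 and 81.2 in the Fgf13cko pair (log2 fold change 1.30, adjusted p = 0.0214). Atf7 (chr15:102546503-102547834, exon 8 of 12), a bZIP factor of the CREB/ATF family, held 43.1 and 38.0 against 88.2 and 103 (log2 fold change 1.24, adjusted p = 0.0186). DESeq2's Wald test called neither Crct1 nor Atf7. Zbtb18, a transcriptional repressor of neuronal development, held 41.1 and 55.8 tags in the controls and 116 and 118 in the Fgf13cko pair (log2 fold change 1.26, adjusted p = 0.0157). The Zbtb18 region (chr1:177447042-177447833) covers part of a transcript annotated with 1 exon, 1.616 kb from the nearest start site.

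Of the 13 other regions that rose, named here after their values were seen, 7 lay in gene bodies and 6 on the promoter side. In gene bodies, Tenm3 and Tenm4 encode teneurins, cell-surface proteins of neuronal wiring. The Tenm3 region went from 37.2 and 42.3 to 91.7 and 75.9 tags, and the Tenm4 region from 38.2 and 42.3 to 91.7 and 81.2 tags. Their log2 fold changes of 1.07 and 1.10 were close. The remaining gene-body regions were those of Focad, Trmu, Bco1, Gm1110 and Tchh, with log2 fold changes of 0.82 to 1.17. On the promoter side, Msx3, a homeobox gene of the dorsal neural tube, held 58.8 and 45.6 tags in the controls and 124 and 97.0 in the Fgf13cko pair (log2 fold change 1.08, adjusted p = 0.0323). Ppp2r5c, a regulatory subunit of the phosphatase PP2A, held 76.4 and 111 against 204 and 177 (log2 fold change 1.02, adjusted p = 0.0293). Btbd17 held the most tags of any risen region, 331 and 365 in the controls and 688 and 539 in the Fgf13cko pair (log2 fold change 0.82, adjusted p = 0.0487). Dthd1, Dscc1, which acts in sister chromatid cohesion, and Trim16, a tripartite motif protein, rose by 0.86, 0.81 and 0.98. The Trim16 value was 0.64 without Fgf13cko 1. All 13 lost their calls when either control was left out. Btbd17, Trim16, Tchh and Gm1110 also lost theirs with DESeq2 size factors and without mitochondrial regions, where Btbd17 had an adjusted p of 0.0637 and 0.0589 in edgeR. Of the 13, DESeq2's Wald test called only Focad, Ppp2r5c, Btbd17 and Dthd1.

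Of the 5 regions that fell, 3 lay in gene bodies and 2 on the promoter side. Dcaf12, a substrate receptor of the CUL4 ubiquitin ligase, dropped from 68.5 and 54.9 tags in the controls to 13.8 and 19.0 in the Fgf13cko pair at chr4:41293788-41294318, exon 8 of 9 (log2 fold change -1.90, SE 0.36, adjusted p = 0.0167). Zscan18, a zinc finger gene, dropped from 74.4 and 57.5 to 22.9 and 30.6 tags (log2 fold change -1.29, SE 0.32, adjusted p = 0.0448). The Zscan18 region (chr7:12774376-12775072) is on the promoter side, 0.934 kb from a start site. Espn, which bundles actin filaments, dropped from 127 and 120 to 64.2 and 62.2 tags at chr4:152130907-152131656, exon 4 of 10 (log2 fold change -0.97, SE 0.20, adjusted p = 0.0242). Celsr2, a cadherin of planar cell polarity, dropped from 147 and 138 to 84.8 and 73.8 tags at chr3:108401735-108402451, exon 9 of 34 (log2 fold change -0.84, SE 0.20, adjusted p = 0.0363). Ctbp1, a transcriptional corepressor, dropped from 256 and 232 to 147 and 144 tags at chr5:33274110-33275462 on its first exon (log2 fold change -0.74, SE 0.18, adjusted p = 0.0406). None of the 5 passed when either control was left out, and DESeq2's Wald test kept 1 of them. The region that DESeq2 kept was that of Dcaf12, and limma-voom called neither Dcaf12 nor Zscan18. With scaling to all region tags none of the falls passed, and the values of Celsr2 and Ctbp1 turned to rises of 0.12 and 0.22.

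The shares that passed were lower on the promoter side than in gene bodies, a difference that was not tested. Of 914 promoter-side regions tested, 6 rose (0.66%) and 2 fell, with a median log2 fold change of -0.04. Of 317 gene-body regions, 19 rose (5.99%) and 3 fell, with a median of 0.12. Start-site regions stood at 1.16% risen with a median of -0.10, and introns outside CpG islands at 9.99% risen with a median of 0.12. Gene-body exonic regions were thus near the background of 6.20% and promoter-side ones below it. Between 1 and 10 kb 6 of 156 rose, and over 10 kb 13 of 161 rose (8.07%). By exon, 16 of 238 regions on internal exons rose, against 7 of 877 on first exons and 2 of 116 on last exons. None of 41 on the X chromosome, where Fgf13 lies, passed in edgeR's test, against 2.03% risen and 0.41% fallen of all tested exonic regions. A count of 0 in so few regions says little. Of the 41, 3 had an unadjusted p under 0.05, DESeq2 called 0 and limma-voom called 1, that of Pcyt1b, a phosphatidylcholine synthesis gene. The Pcyt1b region held 35.3 and 27.1 tags in the controls and 73.3 and 63.2 in the Fgf13cko libraries (adjusted p = 0.0376 in limma-voom and 0.0534 in edgeR).

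The 2 kinds of region also differed in depth. Promoter-side regions held a median of 86.2 normalised tags in the controls and gene-body regions 42.5. The difference in medians between the kinds rested on Fgf13cko 2. Without that library the median was -0.02 in gene bodies and 0.04 on the promoter side. Without Fgf13cko 1 the medians were 0.17 and -0.15. From Fgf13cko 1 to Fgf13cko 2 the median exonic region moved by -0.19 on the promoter side and by 0.15 in gene bodies on the log2 scale.

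**Figure D2:**
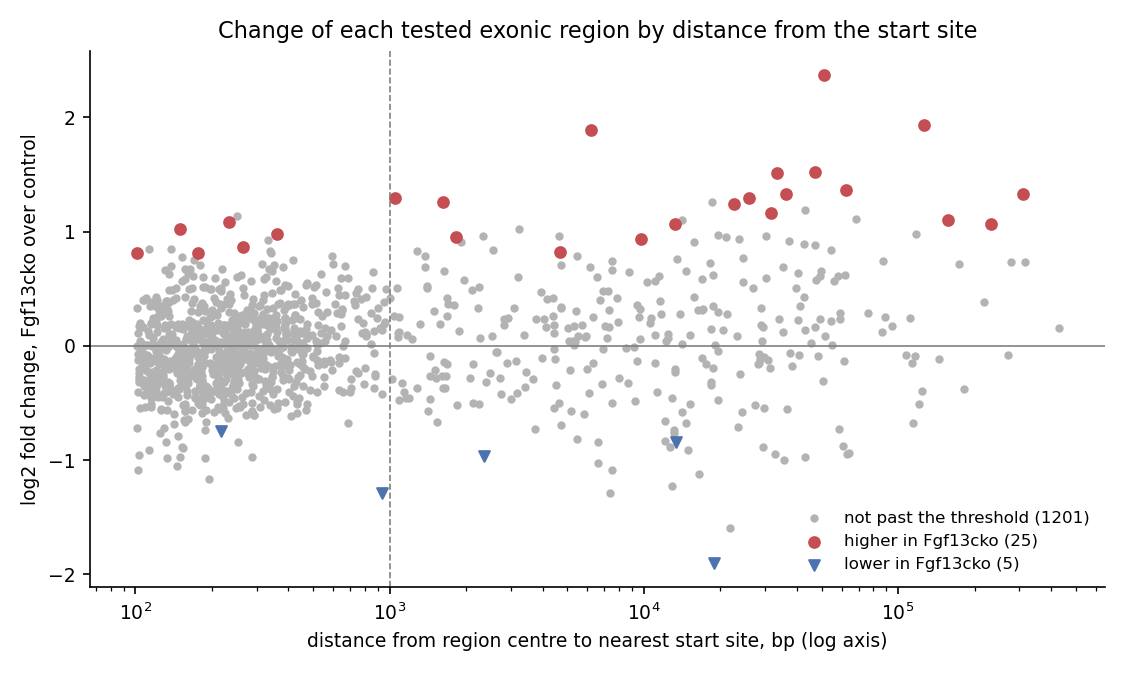
Log2 fold change, Fgf13cko over control, of each of the 1231 tested exonic regions against the distance of its centre from the nearest start site (log axis). The dashed line marks 1 kb, to the right of which lie 19 of the 25 risen regions (red) and 3 of the 5 fallen ones (blue triangles).

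**Figure D3:**
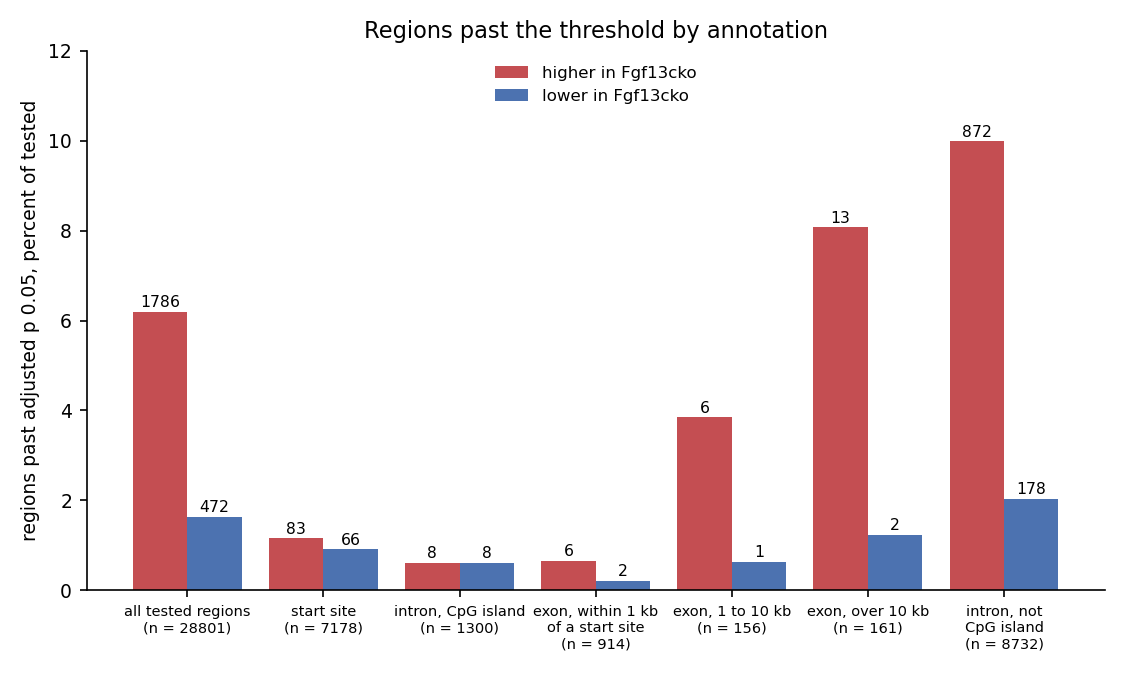
Percent of tested regions past an adjusted p of 0.05 in each annotation class, with the number of regions above each bar. The bar for risen exonic regions is 0.66% within 1 kb of a start site and 8.07% beyond 10 kb, against 1.16% for start sites and 9.99% for introns outside CpG islands.

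The split can also be read from shares of tags, which need no scaling between libraries. Exonic regions took 4.39% and 4.42% of nuclear region tags in the controls and 4.43% and 4.14% in the Fgf13cko libraries. These shares overlapped (difference -0.12 percentage points, exact permutation test, two-sided p = 1, smallest p possible 0.333). The gene-body share of all exonic tags was 16.2% and 15.8% in the controls and 16.7% and 19.6% in the Fgf13cko libraries, which did not overlap (exact permutation test, two-sided p = 0.333, the smallest that 2 against 2 can give). Fgf13cko 2 lay farther from the controls than Fgf13cko 1 did.

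The exonic regions in gene bodies were set beside the start sites of their own genes. The start-site region of a gene was here its start-site or 5′ UTR region with the most normalised tags. A tested one was available for the host gene of 110 gene-body regions, in 107 genes. Over these pairs the log2 fold changes had r = -0.05 and rho = 0.03, given as a description across regions of the same 4 libraries. Of the 11 risen regions among them, 0 had a start-site region past the threshold in edgeR, DESeq2 or limma-voom, with 1 at an unadjusted p under 0.05 in each. Of all start-site and 5′ UTR regions only 1.21% rose and 0.83% fell in edgeR, so a count of 0 says little. The start sites of the 11 had log2 fold changes of -0.52 to 0.43. The Cacna1c start site held 74.4 and 59.2 control tags against 71.1 and 78.0 in Fgf13cko, which overlapped. The Dclk2 start site held 97.9 and 82.8 against 110 and 103 (log2 fold change 0.24, adjusted p = 0.544). The Zbtb18 start site went the other way from its exonic region, with 386 and 416 tags in the controls and 284 and 276 in the Fgf13cko libraries, and did not pass (log2 fold change -0.52, adjusted p = 0.130). For the fallen Dcaf12 region the start site held 92.1 and 122 against 176 and 122 (log2 fold change 0.48, adjusted p = 0.292).

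**Figure D4:**
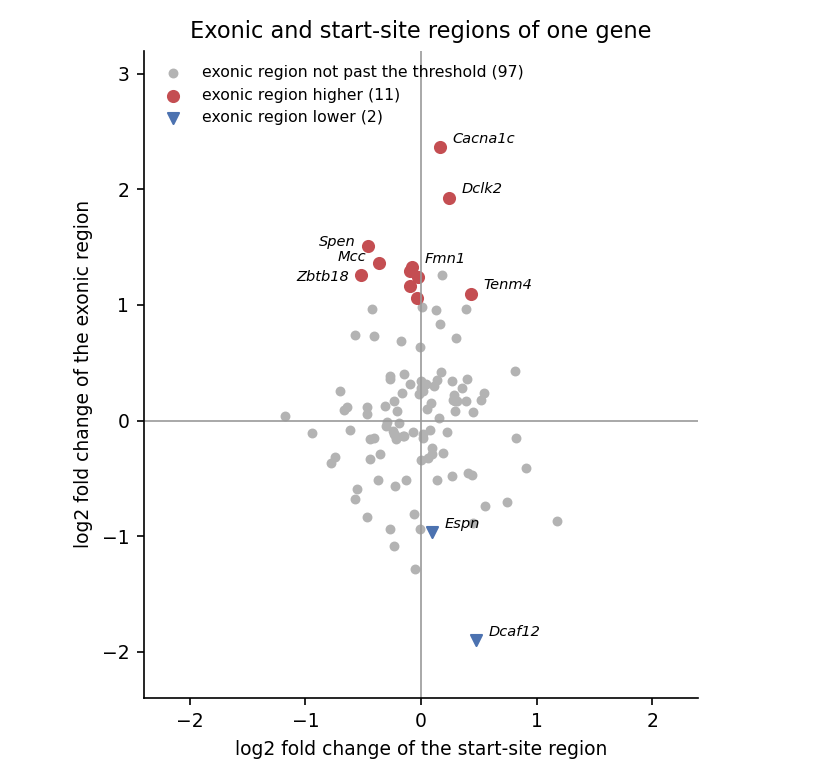
Log2 fold change of a gene-body exonic region against that of the start-site region of the same gene, for 110 regions, with equal scales. The 11 risen exonic regions (red) spread from -0.52 to 0.43 on the start-site axis.

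A direct test of a region against the other regions nearest to its gene was possible for 612 exonic regions (edgeR's diffSpliceDGE, adjusted over 20126 regions). Above their gene were 5 and below it 5, against a background of 1.85% above and 1.38% below. Of 7579 introns outside CpG islands tested, 181 were above and 110 below. Of 2908 start sites, 7 were above and 39 below. A tilt to above in introns and to below at start sites was thus also seen outside exonic regions. All 5 exonic regions above were among the 211 gene-body regions tested, and they had also risen by themselves. They were Dclk2 (1.37 above its gene on the log2 scale, adjusted p = 0.000559), Cacna1c (1.42, adjusted p = 0.00389), Zbtb18 (1.31, adjusted p = 0.00813), Fmn1 (1.21, adjusted p = 0.0110) and Abcc12 (1.52, adjusted p = 0.0131). The other risen regions that had this test did not pass it. Their values ran from -0.06 for Tchh (adjusted p = 0.981) to 0.98 for Tenm3 (adjusted p = 0.130). Angpt2 stood at 0.007 (adjusted p = 0.999). All 5 exonic regions below were on first exons, among the 401 promoter-side regions tested, and none had passed by itself. Among them were Nsmce3, a subunit of the SMC5/6 complex (-1.15, adjusted p = 0.00454), Fam181b (-0.97, adjusted p = 0.00937), Hectd2, a HECT-type ubiquitin ligase (-1.14, adjusted p = 0.0270), and Dcp2, the mRNA decapping enzyme (-0.73, adjusted p = 0.0483). The Dcp2 value lost its call with library size only (adjusted p = 0.0593) and with DESeq2 size factors (adjusted p = 0.0577). Fam181b shows what such a value is. Its own region held 253 and 237 tags in the controls and 259 and 223 in the Fgf13cko libraries, so the other regions near the gene had the higher log2 fold changes. No call of this test was kept when either control was left out, and more regions passed when either Fgf13cko library was. Those fits leave 1 culture in a group, so their counts are not set beside the ones above.

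The 25 genes with a pair of exonic regions held 50 of them, of which 1 rose (Tchh) and 1 fell (Espn), against 2.03% and 0.41% of all tested exonic regions, so no difference is read from this count. The second Espn region, 6907 bp away, had a log2 fold change of -0.24 (adjusted p = 0.850). The second Tchh region, 1066 bp away, had one of 0.96 (adjusted p = 0.0597), against 0.82 (adjusted p = 0.0484) for the one that passed. The Chd7 regions, in the gene of a chromatin remodeller, had values of 0.74 on exon 16 and -0.68 on exon 38, and neither passed. Nedd4l, a ubiquitin ligase, had -0.17 on its first exon and -0.97 on exon 25, where Fgf13cko 1 held 9.17 tags and Fgf13cko 2 held 40.1.

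Of 467 genes on 19 lists of neural, signalling, structural and other cell-type genes, 43 had a tested exonic region, 46 regions in all. Of these 46 regions 1 rose (Cacna1c) and 1 fell (Celsr2), against 6.20% and 1.64% of all tested regions, and their median log2 fold change was -0.05, against -0.00062 over all regions. The ion channel list had 5 regions. Besides Cacna1c, its Cacna1a region, in the gene of a P/Q-type calcium channel, held 82.3 and 89.6 tags in the controls and 50.4 and 54.8 in the Fgf13cko pair (log2 fold change -0.71, unadjusted p = 0.0144), and Scn8a, a sodium channel, had a value of 0.57. The Wnt list had 4 regions, of which Celsr2 fell and Tcf7l1, Fzd7 and Znrf3 had values of -0.35, -0.52 and -0.05. The cytoskeleton list had the most, 13 regions in 11 genes with a median of 0.07, and 0 passed in edgeR (1 at an unadjusted p under 0.05), DESeq2 or limma-voom. Among them the spectraplakin gene Dst had a value of -0.89 on exon 36 (unadjusted p = 0.0181 and adjusted p = 0.121). Its other region, on exon 20, had a value of 0.08 (adjusted p = 0.971). The FGF and MAPK list had only Dusp4 and Fgfr3, at -0.27 and -0.16. The neural stem cell list had only Id4, at -0.38, and the neurogenic list Neurod1 and Tbr1, at -0.31 and 0.28. The matrix list had Col6a3, at 1.11 (adjusted p = 0.0606), and Lama5, at 0.00078, the oligodendrocyte list Bcas1 at 0.95, Sox8 at -0.29 and Olig1 at -0.19, the Notch list Hey1 at -0.51 and Notch4 at -0.05, and the synaptic list included Shank3 at 0.30, and none of these passed. Sox5 and Lhx9, from the patterning list, had values of 0.83 and 0.51 without passing. The lists of microglia and of choroid plexus had 0 exonic regions, and the endothelial and meningeal lists 1 each, Flt1 at -0.12 and Foxc1 at 0.14.

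The 5 most accessible exonic regions did not pass the test. Of all tested exonic regions 2.03% rose and 0.41% fell, so no difference is read from this count. The first exon of Hjurp, the chaperone of the centromeric histone CENP-A, held 879 and 937 normalised tags per kb in the controls and 1153 and 871 in the Fgf13cko libraries. Zfp446, Tmx4, Rab4b and Spaca6 followed, with log2 fold changes of -0.17 to 0.07 in tags per region. Spaca6 was the only gene-body region of these 5. The widest regions covered the single exon of Slitrk1, a synaptic adhesion gene (3372 bp), and the first exons of the ephrin receptor gene Epha4 (3076 bp) and of Tsc22d2 (3015 bp). The Slitrk1 region held 139 and 139 tags in the controls and 241 and 198 in the Fgf13cko libraries, and did not pass after adjustment (log2 fold change 0.65, adjusted p = 0.0726). The median of the authors' fold enrichment for the top peak of a region was 5.11, 5.34, 5.11 and 5.01 on the promoter side and 4.17, 4.32, 4.91 and 4.62 in gene bodies, in control 1 and 2 and Fgf13cko 1 and 2. The Cacna1c peak reached 4.42 and 4.62 in the control lists and 7.38 and 7.997 in the Fgf13cko lists. Peak enrichment did not follow the tags in every risen region, since the Btbd17 peak had 5.29 and 5.87 in the control lists and 4.74 and 5.12 in the others, and the Tchh peak 4.16 and 3.85 and then 3.44 and 3.89.

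The 6 regions that were not tested lay in Slc25a37, Gm3448, Fam177a2, H4c18, Smgc and Gm1604b. The regions of Slc25a37, Gm3448 and Fam177a2 are listed at 0 tags in all 4 libraries, although each has a peak in all 4 lists. The H4c18, Smgc and Gm1604b regions held at most 8 tags in any library.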

How the data were processed

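ATAC-seq of 4 neurosphere cultures was used, 2 control and 2 Fgf13cko, grouped by the sample titles. The deposited count table holds estimated counts, raw HOMER tag counts per merged region on mm10 per the file headers, in multiples of 0.5. These were rounded to whole numbers. The deposited broad peak lists give a fold enrichment (a ratio) and a -log10 q for each peak, the authors' own values, used only for description. The submitters' processing notes list HOMER, DESeq2, MACS2, Picard and Bowtie2. How duplicates and the transposase shift were handled is not given in the sources used here.

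Members and lists were chosen with earlier results of these data known. The fit used edgeR 4.0.16 in R 4.3.3 (robust glmQLFit, TMM, filterByExpr, no covariates) over all regions, with Benjamini-Hochberg adjustment and a threshold of 0.05. The code was tested on simulated data. The rule for naming took the 12 largest rises and falls past the threshold with separate groups (1 per gene, predicted genes skipped), the 5 densest and 3 widest regions, genes with a pair of regions, up to 4 regions per list by p, and up to 6 by the test against the gene, with further passing ones added. Some regions that the rule names are not reported here. Alternatives were other scalings, filters, tools (DESeq2 1.42.0, limma 3.58.1), a replicate block and leaving out each library. Same-numbered libraries had deviations that correlated at -0.23, so the numbers were not taken to pair the libraries.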

Additional observations from a re-analysis of the deposited data

How the results depend on the processing

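Main values were 25 regions risen, 5 fallen, a median log2 fold change of -0.01 and 10 regions that differed from their gene. Leaving out 1 library gave 3 to 160 risen, 0 to 105 fallen, medians of -0.0956 to 0.0277, and 0 to 100 regions that differed from their gene. The share of nuclear tags, Fgf13cko minus control, then ranged from -0.264 to 0.0255 percentage points, against -0.12 with all libraries. Scaling to all region tags gave 849 risen, 0 fallen and a median of 0.95, and turned Celsr2 to 0.12 and Ctbp1 to 0.22. A loess offset gave 25 fallen, and a minimum mean of 50 tags 16 fallen. DESeq2's Wald test gave 14 risen and 2 fallen. Only regions 1 kb or more from a start site gave 3 fallen, a median of 0.12 and a share difference of 0.0698, and all region tags as the denominator gave 1.37. Leaving out a library moved the shares over all tested regions in the same directions. The cause of the differences between the alternatives was not tested. The replicate block gave 34 risen and 6 fallen and ended the calls of Ctbp1 and of Btbd17 (adjusted p = 0.0942). In the test against the gene it kept 8 of 10 calls, and that of Dcp2 was lost (adjusted p = 0.1503). With the numbers crossed, an alternative chosen after seeing the data, 50 rose and 15 fell. The loess offset was not run for the test against the gene, since that function takes 1 set of offsets for all gene totals. Of 418 values of single regions under the alternatives, 327 kept their direction and call, 89 lost the call and 2 reversed. Gene-body regions held a median of 42.5 normalised tags in the controls, against 86.2 on the promoter side, and the size of change that this depth can show was not measured.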
